A study of Drosophila melanogaster with 12 samples.

Results

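The cytosolic ribosomal protein genes were taken from the deposited table by symbol: every gene whose symbol starts with RpL or RpS, and sta, the gene of small subunit protein RpSA. The rule found 93 of 15423 genes, 54 of the large subunit and 39 of the small. A gene was tested only where enough libraries held counts for edgeR's filterByExpr (minimum count 10), which kept 86 of the 93 (51 large, 35 small) and 9553 of all genes. The 7 genes that did not pass were the paralogs RpL10Aa, RpL22-like, RpL37b, RpS10a, RpS19b, RpS28a and RpS28-like, each with 0 to 9 counts in any library. RpL37a and RpL37A are different genes whose symbols differ only in case.

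The 4 groups of fly (Drosophila melanogaster) heads came from the ADAR hypomorph strain grown at 29°C or at 18°C and from the WT control strain grown at 29°C or at 18°C, with 3 libraries each. Flies were harvested 3 to 6 days after eclosion. In a hypomorph a gene works at a reduced level, here Adar, whose enzyme turns adenosine into inosine in RNA. The heads were profiled by 3′ RNA-seq, which samples each mRNA near its 3′ end, and the count of a gene therefore does not scale with the length of its transcript. The temperature effect in each strain and the strain effect at each temperature are the comparisons of the design. The sources used here do not say whether the libraries of a group came from separate cultures, so p-values measure the spread between these libraries.

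The ribosome joins a small subunit, which reads the mRNA, with a large subunit, which makes the peptide bond, and each subunit needs its proteins in matched amounts. The mRNAs of ribosomal proteins are among the most abundant of a cell and share a pyrimidine-rich start through which their translation follows nutrient and growth signals. In flies, losing one copy of many of these genes gives the Minute phenotype of slow development and short bristles, and several of the genes have a duplicate that is used mainly in the germline.

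Total counts ranged from 4409119 to 8806472. Levels are given as CPM, the counts scaled to a common library size that edgeR's TMM method had normalized. 1 library stood apart, the unnumbered library of the ADAR hypomorph at 18°C. It had the lowest total count, the highest TMM factor (1.16, against 0.92 to 1.10 in the other 11 libraries) and Adar at 37.7 CPM, while replicates 2 and 3 of its group had 22.5 and 28.0 CPM, the hypomorph libraries at 29°C 21.7 to 24.6 CPM and the WT libraries 35.2 to 42.3 CPM. Counts of called ribosomal protein genes in the main fit are given with and without it. So are the values that rest on it of the largest rises and falls and of some further named genes. Other values and counts, such as those on other scales, of genes without overlap and of the other lists, are given only with it. All 5 head neuron, 5 photoreceptor and 5 glia markers were detected in every group. The 5 photoreceptor markers summed to 17260 to 19076 CPM in the ADAR hypomorph and 3843 to 4423 CPM in WT flies at 29°C, and to 13563 to 13831 CPM in the ADAR hypomorph and 2778 to 3104 CPM in WT flies at 18°C. The 6 fat body markers, yolk proteins among them, summed to 44779 to 51837 CPM in the ADAR hypomorph and 79626 to 83442 CPM in WT flies at 29°C, and to 20677 to 31913 CPM in the ADAR hypomorph and 97260 to 105637 CPM in WT flies at 18°C. In whole heads, fewer cells of a type and less RNA per cell cannot be told apart.

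Ribosomal protein mRNAs took at least 20.8% of all counts in every library, and a larger share at 29°C than at 18°C in both strains. The 93 genes held 27.7%, 28.4% and 27.7% of the counts in the ADAR hypomorph at 29°C, against 20.8%, 23.3% and 22.5% in the ADAR hypomorph at 18°C. In WT flies they held 29.2%, 30.2% and 29.8% at 29°C, against 22.8%, 23.0% and 22.6% at 18°C. The temperatures did not overlap in either strain, and the lowest share was that of the unnumbered library of the ADAR hypomorph at 18°C. At 29°C the WT libraries all lay above the ADAR hypomorph libraries, while at 18°C the shares of the strains overlapped. These shares are given as a description, without a test. Over the 12 libraries the mean level had a median of 2995 CPM among the 86 tested genes. RpL41, the smallest ribosomal protein, was the most abundant at 7879 CPM, followed by RpS26 at 6811 CPM and RpL39 at 4983 CPM. The 7 lowest tested genes were paralogs or -like genes, RpS14b at 833 CPM, RpL34a at 447 CPM, RpL24-like at 446 CPM, RpS15Ab at 115 CPM, RpL7-like at 83.3 CPM, RpLP0-like at 16.4 CPM and RpS5b at 1.26 CPM.

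**Figure D1:**
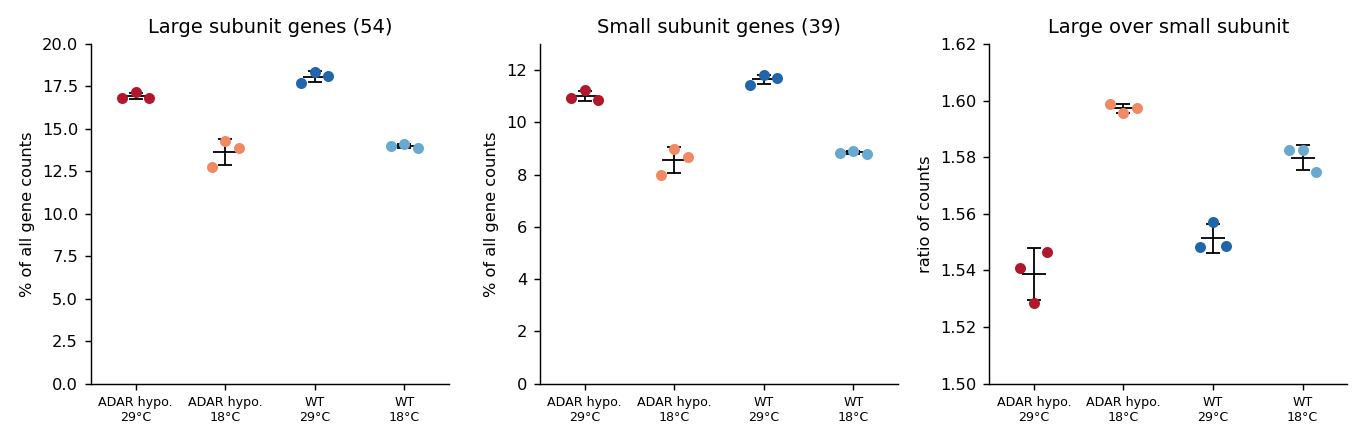
Share of all gene counts on the 54 large subunit genes (left) and the 39 small subunit genes (middle), in percent, and the ratio of the counts of the large to those of the small subunit (right, axis starts at 1.5), for the 3 libraries of each group. Points are libraries and bars the mean ± SD; both subunits had a larger share at 29°C in both strains, and the ratio was lower at 29°C (1.53 to 1.56) than at 18°C (1.57 to 1.60).

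The subunits moved together. Large subunit genes held 16.9% ± 0.20 of the counts in the ADAR hypomorph at 29°C and 13.6% ± 0.78 in the ADAR hypomorph at 18°C, and 18.1% ± 0.33 in WT flies at 29°C and 14.0% ± 0.13 in WT flies at 18°C (SD, n = 3 each). Small subunit genes held 11.0% ± 0.19 in the ADAR hypomorph at 29°C and 8.54% ± 0.50 in the ADAR hypomorph at 18°C, and 11.6% ± 0.18 in WT flies at 29°C and 8.85% ± 0.06 in WT flies at 18°C (SD, n = 3 each). The ratio of large to small subunit counts was nevertheless lower at 29°C in every library. It was 1.53 to 1.55 in the ADAR hypomorph at 29°C and 1.60 in all 3 libraries at 18°C, and 1.55 to 1.56 in WT flies at 29°C and 1.57 to 1.58 at 18°C. The most abundant gene, RpL41, weighed on this ratio. Without it, an alternative chosen after seeing the data, the ratio was 1.46 to 1.48 in the ADAR hypomorph at 29°C and 1.501 to 1.510 at 18°C, and overlapped between the temperatures in WT flies, at 1.48 to 1.49 at both.

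At 29°C nearly all tested ribosomal protein genes were higher than at 18°C, in both strains and both subunits, by a factor of about 1.4. In the ADAR hypomorph 82 of the 86 genes were higher at 29°C and 0 lower (p adjusted by Benjamini-Hochberg over the 9553 genes under 0.05 in the quasi-likelihood test of edgeR), where 15.6% of all tested genes were higher and 16.6% lower. DESeq2 also gave 0 lower, and 0 were lower at an unadjusted p under 0.05. The median log2 fold change of the 86 genes was 0.52 (1.43-fold), against -0.01 over all genes tested. It was 0.51 for the large subunit, with 48 of 51 higher, and 0.52 for the small, with 34 of 35 higher. In WT flies 82 of 86 were again higher and 0 lower (0 at an unadjusted p under 0.05 and 0 by DESeq2), where 16.1% of all tested genes were higher and 17.3% lower, with a median of 0.44 (1.36-fold), 0.45 for the large subunit (48 of 51) and 0.43 for the small (34 of 35). The libraries of the temperatures did not overlap for 82 genes that were higher at 29°C in the ADAR hypomorph and 83 in WT flies (background 22.1% in each). The 4 genes that did not pass were the same in both strains: RpL41, RpL7-like, RpLP0-like and RpS5b. None of the 86 genes passed the study's own criterion, a log2 fold change beyond 1 and an unadjusted p under 0.05, in the ADAR hypomorph, where 3.05% of all tested genes were higher by it, and 1 did in WT flies, RpL24-like, where 3.28% were. The counts did not depend on single libraries, 81 or 82 in the ADAR hypomorph and 80 to 82 in WT flies with each left out in turn (background 12.7% to 15.4% and 12.9% to 16.2%). Without the unnumbered library of the ADAR hypomorph at 18°C, 81 were higher in that strain (background 13.3%), with a median of 0.44. Scaled to total counts, which moved the median of all genes by -0.19 in the ADAR hypomorph, 79 were higher and 1 lower there. On that scaling 841 of the 9553 tested genes were higher and 3003 (31.4%) lower in this strain. The photoreceptor markers were also higher at 29°C (4 of 5 passed in the ADAR hypomorph and 5 of 5 in WT flies) and 4 of 5 glia markers lower in each strain. Of the 5 head neuron markers 2 were higher at 29°C in the ADAR hypomorph and 3 in WT flies. Of the 6 fat body markers 4 were higher at 29°C in the ADAR hypomorph and 5 lower in WT flies, and of the 5 muscle markers 1 was higher and 1 lower in the ADAR hypomorph and 1 higher and 4 lower in WT flies. Their part in the result was not tested.

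The largest rises in the ADAR hypomorph were those of sta, RpS20 and RpL24-like, and the same 3 genes led in WT flies. sta had 4135, 4223 and 4135 CPM in the ADAR hypomorph at 29°C, against 1834, 2324 and 2162 CPM at 18°C. In WT flies it had 4476, 4718 and 4482 CPM at 29°C, against 2458, 2385 and 2374 CPM at 18°C. The temperatures were far apart in both strains, and the log2 fold change was 0.98 (SE 0.07, adjusted p = 5.31e-08) in the ADAR hypomorph and 0.92 (SE 0.07, adjusted p = 9.59e-08) in WT flies. RpS20, a protein of the head of the small subunit, had 4403, 4571 and 4389 CPM in the ADAR hypomorph at 29°C, against 2029, 2419 and 2322 CPM at 18°C. In WT flies it had 4996, 5334 and 5114 CPM at 29°C, against 2843, 2975 and 2856 CPM at 18°C. Again no library overlapped, and RpS20 rose by a log2 fold change of 0.98 (SE 0.06, adjusted p = 1.63e-08) in the ADAR hypomorph and 0.83 (SE 0.06, adjusted p = 7.80e-08) in WT flies. RpL24-like, whose yeast counterpart Rlp24 is a ribosome assembly factor that holds the place of Rpl24 on the precursor, had 613, 621 and 597 CPM in the ADAR hypomorph at 29°C, against 352, 368 and 337 CPM at 18°C. In WT flies it had 547, 565 and 556 CPM at 29°C, against 279, 257 and 258 CPM at 18°C. RpL24-like rose by 0.79 (SE 0.06, adjusted p = 5.68e-08) in the ADAR hypomorph and by 1.07 (SE 0.06, adjusted p = 4.07e-09) in WT flies, with no overlap in either strain. Without the unnumbered library at 18°C the values in the ADAR hypomorph were 0.89 for sta, 0.91 for RpS20 and 0.79 for RpL24-like, all still past the test.

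**Figure D2:**
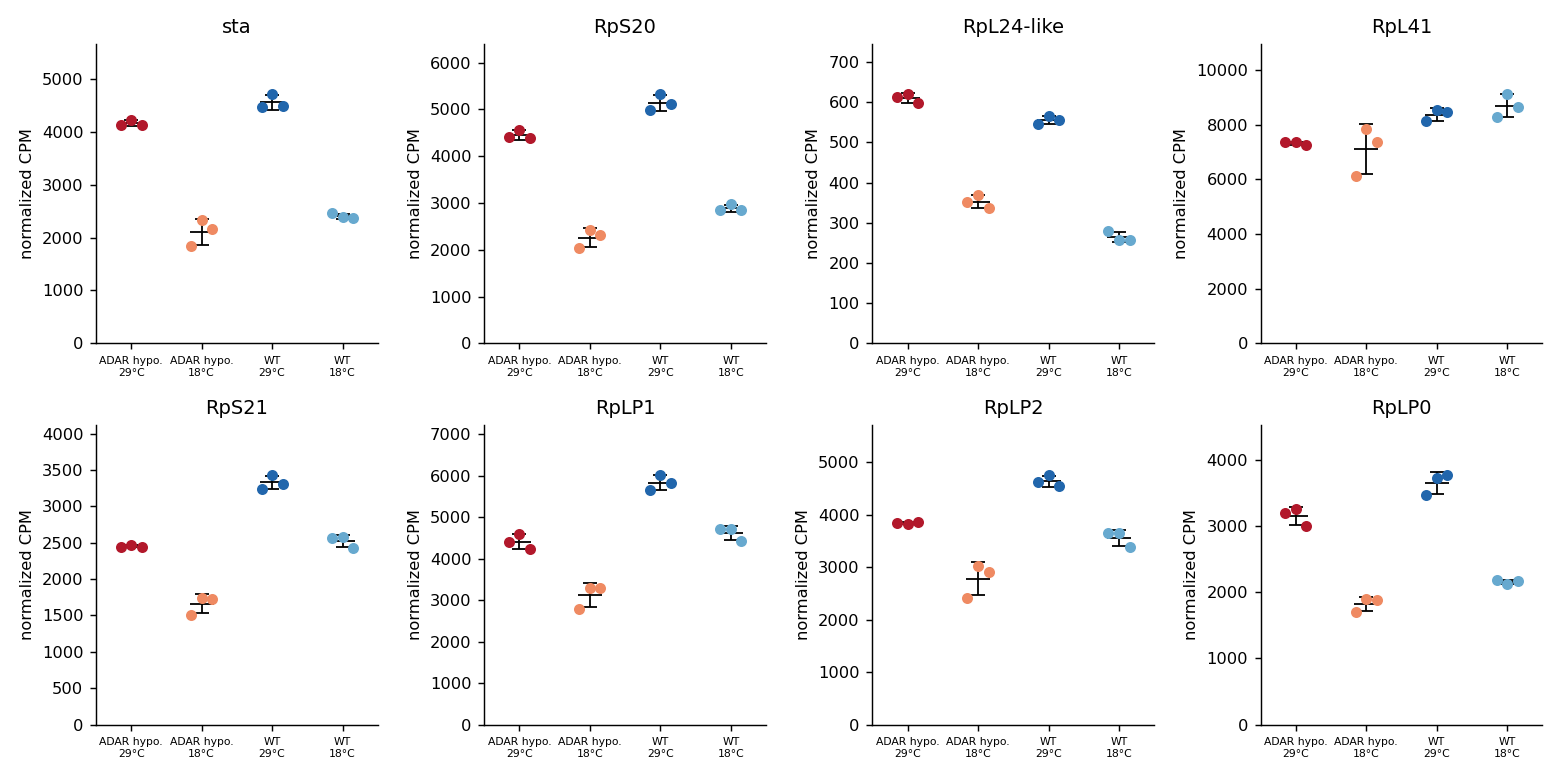
Levels of 8 ribosomal protein genes in TMM-normalized CPM, for the 3 libraries of each group; points are libraries and bars the mean ± SD. sta, RpS20, RpL24-like and RpLP0 were higher at 29°C without overlap, RpL41 overlapped between the temperatures, and RpS21, RpLP1 and RpLP2 were lower in the ADAR hypomorph than in WT flies at both temperatures.

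RpL41 was the exception among the abundant genes. It had 7362, 7361 and 7257 CPM in the ADAR hypomorph at 29°C, against 6114, 7858 and 7379 CPM at 18°C. In WT flies it had 8124, 8553 and 8459 CPM at 29°C, against 8294, 9134 and 8658 CPM at 18°C. The temperatures overlapped in both strains, with log2 fold changes of 0.04 (SE 0.07, adjusted p = 0.700) in the ADAR hypomorph and -0.05 (SE 0.07, adjusted p = 0.613) in WT flies. The value in the ADAR hypomorph was -0.14 when counts were scaled to library totals. Without the unnumbered library at 18°C it was -0.06, which did not pass the test. RpL41 therefore held a smaller part of the ribosomal protein counts at 29°C than at 18°C, 2.53% to 2.58% in the ADAR hypomorph at 29°C against 3.42% to 3.64% at 18°C, and 2.61% to 2.70% in WT flies at 29°C against 3.54% to 3.85% at 18°C. RpL7-like and RpLP0-like, whose yeast counterparts Rlp7 and Mrt4 act in the assembly of the large subunit, were at 85.0 to 94.7 CPM and 12.4 to 17.9 CPM in the ADAR hypomorph at 29°C and at 83.9 to 91.2 CPM and 13.3 to 16.2 CPM at 18°C, ranges that overlap. In WT flies RpL7-like had 82.2 to 82.6 CPM at 29°C and 71.4 to 76.0 CPM at 18°C, which did not overlap, but its log2 fold change of 0.15 did not pass the test (SE 0.07, adjusted p = 0.114). RpLP0-like had 15.5 to 17.7 CPM in WT flies at 29°C and 17.5 to 20.4 CPM at 18°C.

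**Figure D3:**
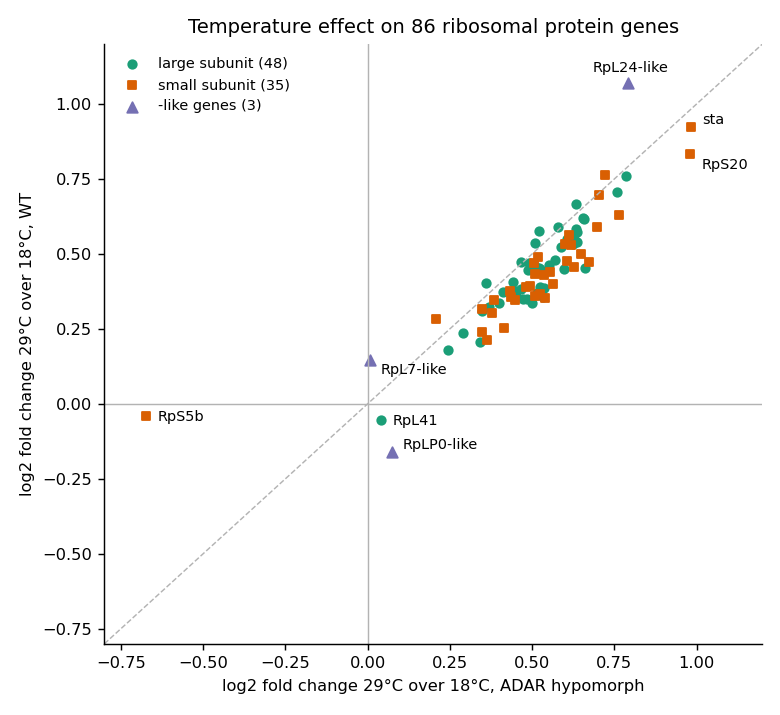
Log2 fold change of 29°C over 18°C for the 86 tested ribosomal protein genes in the ADAR hypomorph (horizontal) and WT flies (vertical), coloured by subunit, with the -like genes as triangles. The dashed line marks equal effects; most genes lie between 0.2 and 0.8 in both strains, with sta, RpS20 and RpL24-like at the top right and RpL41, RpL7-like, RpLP0-like and RpS5b near or below 0 in at least one strain.

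The stalk of the large subunit, formed by RpLP0, RpLP1 and RpLP2, recruits and activates the elongation factors. RpLP0 had 3192, 3257 and 3003 CPM in the ADAR hypomorph at 29°C, against 1705, 1898 and 1877 CPM at 18°C, and in WT flies 3463, 3726 and 3765 CPM at 29°C, against 2179, 2122 and 2173 CPM at 18°C. Its log2 fold change was 0.79 (SE 0.06, adjusted p = 6.12e-08) in the ADAR hypomorph and 0.76 (SE 0.06, adjusted p = 8.59e-08) in WT flies. RpLP1 and RpLP2, the acidic proteins bound to RpLP0, rose less, by 0.50 and 0.47 in the ADAR hypomorph and by 0.34 and 0.38 in WT flies (SE 0.06 to 0.07, adjusted p at most 0.000747 for each). Genes picked for known roles spread over the same range. RpS6, the target of S6 kinase, had a log2 fold change of 0.70 in each strain. RpL5, which with RpL11 brings the 5S rRNA to the ribosome, had 0.76 in the ADAR hypomorph and 0.71 in WT flies, and RpL11 had 0.47 in the ADAR hypomorph and 0.35 in WT flies. RpS3, at the mRNA entry of the small subunit, had 0.61 in the ADAR hypomorph and 0.48 in WT flies (SE 0.06 to 0.07 and adjusted p at most 0.000546 for these 4 genes). Without the unnumbered library at 18°C the values in the ADAR hypomorph were 0.74 for RpLP0, 0.42 for RpLP1 and 0.37 for RpLP2. They were 0.64 for RpS6, 0.70 for RpL5, 0.39 for RpL11 and 0.51 for RpS3, and all of these genes still passed the test.

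The order of the genes was alike in the strains, which share no library. Across the 86 genes the temperature effects had Pearson's r = 0.86 and Spearman's rho = 0.89, and 84 had the same sign. Without the -like genes and RpS5b, r was 0.92 over 82 genes. These are descriptions across genes of libraries that share their depth and composition. They were not computed over all tested genes, so nothing particular to the set is read from them. The shared signs largely follow from the genes called higher at 29°C in each strain. Among the 5 chromosome arms with at least 13 tested genes, the medians ran from 0.47 (2R, 19 genes) to 0.62 (X, 15 genes) in the ADAR hypomorph and from 0.35 (2R) to 0.54 (X) in WT flies, lowest on 2R and highest on X in both strains, which was not tested. For the 29 tested genes whose introns or exons hold snoRNA genes in the current annotation the medians were 0.53 in the ADAR hypomorph and 0.46 in WT flies, against 0.51 and 0.39 for the other 57. All 29 of them were higher at 29°C in both strains, and so were 53 of the other 57 in each strain. Nothing particular to the genes that hold snoRNA genes is read from these counts. 26 tested genes overlap a gene on the other strand in that annotation and 7 one on the same strand. The study describes a stranded library preparation but does not say whether counting used strand, so counts of overlapping genes can share reads. For the 54 tested genes with no such overlap the medians were 0.50 in the ADAR hypomorph and 0.39 in WT flies.

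Scaling to the counts of all ribosomal protein genes, an alternative chosen after seeing the data, shows how the composition of the set shifted. On this scale 25 genes were higher and 21 lower at 29°C in the ADAR hypomorph (background 2.95% higher and 61.9% lower over all tested genes), and 23 higher and 16 lower in WT flies (background 3.62% and 51.0%). The summed counts of the members are fixed on this scale, so rises of some go with falls of others. Genes outside the set shift down where the set rose, so this background is no yardstick for the members. sta gained 0.47 in the ADAR hypomorph and 0.49 in WT flies on the log2 scale, RpS20 0.46 and 0.40, RpLP0 0.27 and 0.33, and RpL5 0.24 and 0.27. Among the abundant genes RpL41 lost most, with -0.47 in the ADAR hypomorph and -0.49 in WT flies, and RpL19, a large subunit protein that forms a bridge to the small subunit, had -0.27 and -0.25. Each of these passed the test in both strains (adjusted p at most 7.25e-05). The sta counts made up 1.45% to 1.46% of all ribosomal protein counts in the ADAR hypomorph at 29°C against 1.02% to 1.08% at 18°C, and 1.43% to 1.45% in WT flies at 29°C against 1.00% to 1.05% at 18°C.

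Between the strains the differences were smaller and mostly downward in the ADAR hypomorph. At 18°C, 58 of the 86 genes were lower and 2 higher in the ADAR hypomorph, where 14.6% of all tested genes were lower and 11.6% higher, with a median log2 fold change of -0.22. At 29°C, 14 were lower and 0 higher, where 10.2% were lower and 8.81% higher, with a median of -0.14. At an unadjusted p under 0.05, 50 were lower and 1 higher at 29°C, where 29.8% of all tested genes passed in either direction. DESeq2 gave 27 lower and 0 higher at 29°C (background 9.97% lower and 7.93% higher). By the study's criterion 1 gene, RpS5b, was lower at 29°C, where 2.64% of all tested genes were. The libraries of the strains did not overlap for 66 genes that were lower at 18°C (background 19.5%) and for 71 at 29°C (background 18.4%). The count at 18°C rested on the scaling. With total counts, which moved the median of all genes by 0.19, 10 genes were lower, 5 higher and the median was -0.04. On that scaling 8.16% of all tested genes were lower and 27.6% higher. With only the groups at 18°C fitted, 37 were lower (background 13.9%). Without the unnumbered library of the ADAR hypomorph at 18°C, 51 were lower at 18°C (background 12.5%) with a median of -0.16. The same omission gave 58 lower at 29°C (background 11.1%), a comparison that library is not part of. Without replicate 2 of the same group, 28 were lower at 29°C (background 9.82%). The cause was not tested. At 29°C, 5 were lower without the unnumbered library or replicate 3 of the ADAR hypomorph or replicate 2 of WT flies, 6 without replicate 3 of WT flies, and 9 without replicate 2 of the ADAR hypomorph or the unnumbered library of WT flies, all at that temperature. In these fits 7.80% to 8.83% of all tested genes were lower, and counts of 5 to 9 of 86 lie near that share. With the 29°C groups alone 54 were lower and 1 higher (background 11.3% and 9.79%). The photoreceptor markers (5 of 5 passed) were higher in the ADAR hypomorph at both temperatures, and the fat body markers were lower, 3 of 6 at 29°C and 6 of 6 at 18°C. Of the 5 glia markers 2 were higher in the ADAR hypomorph at 29°C and 3 at 18°C, and of the 5 head neuron markers 1 at 29°C and 2 at 18°C. Of the 5 muscle markers 3 were higher at 29°C and 2 lower at 18°C. Their part in the result was not tested.

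RpS21 and RpLP1 stood lowest in the ADAR hypomorph among the called genes at both temperatures. RpS21, a small subunit protein whose loss in fly larvae leads to overgrown blood-forming organs, had 2446, 2469 and 2439 CPM in the ADAR hypomorph and 3243, 3430 and 3315 CPM in WT flies at 29°C. At 18°C it had 1507, 1734 and 1733 CPM in the ADAR hypomorph and 2570, 2574 and 2429 CPM in WT flies. The strains were separated at both temperatures, with log2 fold changes of -0.44 (SE 0.06, adjusted p = 3.60e-05) at 29°C and -0.61 (SE 0.06, adjusted p = 1.19e-06) at 18°C. RpLP1 had 4393, 4600 and 4237 CPM in the ADAR hypomorph and 5662, 6015 and 5826 CPM in WT flies at 29°C. At 18°C it had 2784, 3292 and 3282 CPM in the ADAR hypomorph and 4713, 4721 and 4430 CPM in WT flies. Its strains did not overlap either, and its log2 fold change was -0.40 (SE 0.06, adjusted p = 2.35e-04) at 29°C and -0.57 (SE 0.06, adjusted p = 7.54e-06) at 18°C. RpLP2, its partner in the stalk, had 3851, 3828 and 3868 CPM in the ADAR hypomorph and 4617, 4755 and 4548 CPM in WT flies at 29°C, and 2419, 3018 and 2913 CPM in the ADAR hypomorph and 3657, 3644 and 3380 CPM in WT flies at 18°C. RpLP2 fell by 0.27 (SE 0.07, adjusted p = 0.00989) at 29°C and by 0.36 (SE 0.07, adjusted p = 0.00108) at 18°C. On the scale of the ribosomal protein counts these 3 genes were still lower in the ADAR hypomorph at both temperatures, RpS21 with -0.30 at 29°C and -0.38 at 18°C, RpLP1 with -0.26 and -0.34, and RpLP2 with -0.13 at both (adjusted p at most 0.0196). In all, 12 members were higher and 7 lower in the ADAR hypomorph at 18°C on this scale (background 28.0% higher and 6.47% lower), and 5 higher and 3 lower at 29°C (background 14.0% and 5.60%). As for temperature, the scale itself shifts this background, which is no yardstick for the members.

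**Figure D4:**
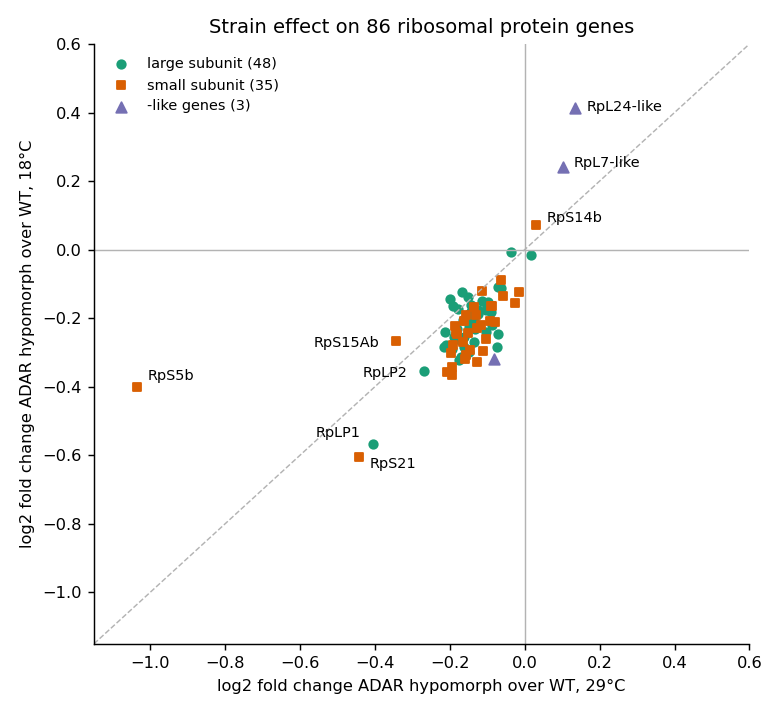
Log2 fold change of ADAR hypomorph over WT flies for the 86 tested ribosomal protein genes at 29°C (horizontal) and at 18°C (vertical), coloured by subunit, with the -like genes as triangles. The dashed line marks equal effects; most genes lie slightly below 0 on both axes, RpS21 and RpLP1 are lower than the rest of the abundant genes, RpL24-like and RpL7-like lie above 0, and RpS5b has few counts.

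RpL24-like and RpL7-like were the 2 genes called higher in the ADAR hypomorph at 18°C, with log2 fold changes of 0.41 (SE 0.06, adjusted p = 4.61e-05) and 0.24 (SE 0.07, adjusted p = 0.0157). RpL24-like passed in all 21 alternatives, while the call of RpL7-like was lost in 6 of 21. In the current annotation RpL7-like overlaps CG34164 on the same strand, and RpL24-like overlaps Dtd on the other. Their counts can therefore include reads of those genes, which was not tested. RpL7-like had 88.8, 83.9 and 91.2 CPM in the ADAR hypomorph and 75.9, 71.4 and 76.0 CPM in WT flies at 18°C, and at 29°C 94.7, 85.7 and 85.0 CPM in the ADAR hypomorph and 82.3, 82.2 and 82.6 CPM in WT flies. Neither gene passed the test at 29°C, at 0.14 (SE 0.06, adjusted p = 0.108) for RpL24-like and 0.10 (SE 0.07, adjusted p = 0.348) for RpL7-like, although in both the libraries of the strains did not overlap. RpS5a, the main copy of a small subunit protein, was the third largest fall at 18°C, with 1723, 2125 and 2125 CPM in the ADAR hypomorph and 2444, 2711 and 2538 CPM in WT flies and a log2 fold change of -0.37 (SE 0.07, adjusted p = 0.00121). At 29°C the third largest fall was that of RpS15Ab, with 110, 115 and 105 CPM in the ADAR hypomorph and 141, 143 and 135 CPM in WT flies and a log2 fold change of -0.34 (SE 0.07, adjusted p = 0.00291). sta was at -0.19 at 18°C (adjusted p = 0.0486), a call that was lost in 14 of 21 alternatives. Without the unnumbered library of the ADAR hypomorph, the values at 18°C were -0.55 for RpS21, -0.50 for RpLP1, -0.27 for RpLP2, -0.28 for RpS5a, 0.41 for RpL24-like and 0.23 for RpL7-like, each still past the test, and -0.11 for sta, which no longer passed. Across the 86 genes, the strain effects at 29°C and 18°C had r = 0.65 and rho = 0.63, and 85 had the same sign. As above, this describes genes and not replicates, and it was not computed over all tested genes.

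The temperature effect was not shown to differ between the strains for any of these genes. The difference of the effects, ADAR hypomorph minus WT, was called for 0 of the 86 genes by edgeR, where 2.32% of all tested genes were called. Its median was 0.08 and its range -0.63 to 0.24, and 2 genes had an unadjusted p under 0.05 (13.9% of all tested genes did), RpL24-like at -0.28 (SE 0.08, adjusted p = 0.0833) and RpL9 at 0.21 (adjusted p = 0.346). DESeq2 called 1 gene lower, RpL24-like (background 0.764% lower). Without the unnumbered library of the ADAR hypomorph at 18°C, the median was -0.0008 and 0 genes were called.

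Paralogs can be compared within a library, where the share of a pair's counts on one copy does not depend on scaling. Of the 14 pairs, 10 had at least 10 counts on the minor gene over all libraries and were tested. For each, strain labels were exchanged within each temperature and temperature labels within each strain (exact permutation test, two-sided, 400 arrangements, smallest p 0.005, adjusted by Benjamini-Hochberg over the 20 tests). Where copies are near-identical, reads could be split between them by the counting, and the shares carry that uncertainty. Every adjusted p of 0.01 given for a pair stayed at or under 0.0333 with any 1 library left out.

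RpS14a and RpS14b are neighbouring X-linked copies that encode the same protein of the small subunit platform. RpS14b took 28.8% ± 0.30 of the pair's counts in the ADAR hypomorph at 29°C and 27.3% ± 0.93 at 18°C, and 26.1% ± 0.24 in WT flies at 29°C and 23.6% ± 0.47 at 18°C (SD, n = 3 each). Its share was 3.17 percentage points higher in ADAR hypomorph than in WT flies and 2.04 points higher at 29°C than at 18°C (exact permutation test, adjusted p = 0.01 for each). The strains did not overlap at either temperature. In the ADAR hypomorph RpS14b had 1058, 1066 and 1034 CPM at 29°C and 586, 707 and 623 CPM at 18°C, and in WT flies 1022, 1070 and 1002 CPM at 29°C and 651, 579 and 594 CPM at 18°C, levels that overlapped between the strains. RpS14a had 2649, 2594 and 2571 CPM in the ADAR hypomorph and 2849, 3028 and 2861 CPM in WT flies at 29°C, and 1492, 1883 and 1742 CPM in the ADAR hypomorph and 2050, 1914 and 1947 CPM in WT flies at 18°C, which did not overlap between the strains. RpS14a fell by 0.21 on the log2 scale in the ADAR hypomorph at 18°C (SE 0.07, adjusted p = 0.0355), a call that was lost in 9 of 21 alternatives, with a value of -0.13 without the unnumbered library of that group. Its value at 29°C was -0.16 (SE 0.07, adjusted p = 0.125). Both copies were higher at 29°C, RpS14b by 0.72 in the ADAR hypomorph and 0.76 in WT flies and RpS14a by 0.61 and 0.56 (SE 0.07, adjusted p at most 1.54e-05).

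RpS15Ab, the minor copy of RpS15A, moved the other way. It took 5.15% ± 0.05 of the pair's counts in the ADAR hypomorph at 29°C and 6.31% ± 0.17 at 18°C, and 6.19% ± 0.30 in WT flies at 29°C and 7.08% ± 0.18 at 18°C (SD, n = 3 each). The share was 0.90 points lower in ADAR hypomorph than in WT flies and 1.02 points lower at 29°C than at 18°C (differences -0.90 and -1.02, exact permutation test, adjusted p = 0.01 for each). RpS15Aa had 1998, 2124 and 1960 CPM in the ADAR hypomorph and 2030, 2165 and 2157 CPM in WT flies at 29°C, and 1239, 1522 and 1486 CPM in the ADAR hypomorph and 1504, 1548 and 1468 CPM in WT flies at 18°C. These levels overlapped between the strains at both temperatures. RpS15Ab had 85.7, 99.5 and 100.4 CPM in the ADAR hypomorph and 113, 122 and 109.6 CPM in WT flies at 18°C, without overlap. Its own rise at 29°C was 0.28 in WT flies (SE 0.07, adjusted p = 0.00721) and 0.21 in the ADAR hypomorph (SE 0.07, adjusted p = 0.0405), a call that was lost in 11 of 21 alternatives.

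RpL34a, the minor copy of RpL34, held 12.5% ± 0.01 of the pair's counts in the ADAR hypomorph at 29°C and 12.2% ± 0.29 at 18°C, and 12.8% ± 0.37 in WT flies at 29°C and 12.1% ± 0.17 at 18°C (SD, n = 3 each). It was 0.55 points higher at 29°C than at 18°C (exact permutation test, adjusted p = 0.01). The difference between the strains was -0.10 points (exact permutation test, adjusted p = 0.773), with within-temperature values of -0.31 at 29°C and 0.11 at 18°C. RpL34a had 492 to 497 CPM in the ADAR hypomorph and 535 to 554 CPM in WT flies at 29°C, and 324 to 379 CPM in the ADAR hypomorph and 377 to 410 CPM in WT flies at 18°C. RpL34b had 3442 to 3482 CPM in the ADAR hypomorph and 3636 to 3843 CPM in WT flies at 29°C, and 2276 to 2742 CPM in the ADAR hypomorph and 2752 to 3040 CPM in WT flies at 18°C. Neither copy passed the test between the strains (adjusted p at least 0.0514).

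**Figure D5:**
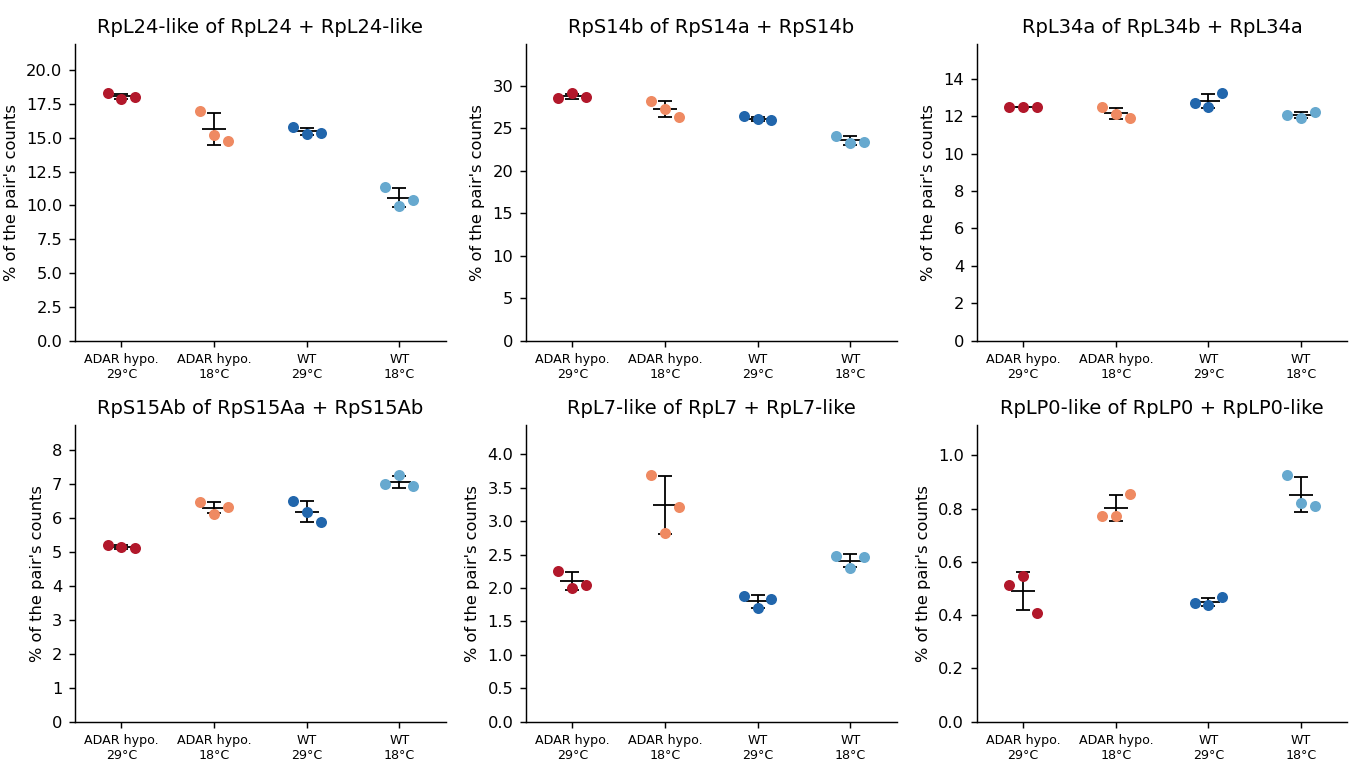
Share of the counts of 6 gene pairs on the minor gene, in percent, for the 3 libraries of each group; points are libraries, bars the mean ± SD, and every axis starts at 0. The shares of RpL24-like and RpS14b were higher at 29°C and higher in the ADAR hypomorph, that of RpS15Ab was lower in both, and those of RpL7-like and RpLP0-like were lower at 29°C.

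The -like genes are set against the structural gene they resemble. In the current annotation RpL7-like overlaps CG34164 on the same strand. RpL24-like and RpLP0-like overlap Dtd and Jra on the other strand, and RpL24 overlaps CG7099 there. The shares of these pairs can therefore include reads of those genes. RpL24-like took 18.1% ± 0.22 of the counts of RpL24 and itself in the ADAR hypomorph at 29°C and 15.7% ± 1.17 at 18°C, and 15.5% ± 0.29 in WT flies at 29°C and 10.6% ± 0.71 at 18°C (SD, n = 3 each). The share was 3.84 points higher in ADAR hypomorph than in WT flies and 3.65 points higher at 29°C than at 18°C (exact permutation test, adjusted p = 0.01 for each). RpL24 itself had 2739, 2857 and 2711 CPM in the ADAR hypomorph and 2912, 3131 and 3070 CPM in WT flies at 29°C, and 1720, 2052 and 1941 CPM in the ADAR hypomorph and 2179, 2313 and 2223 CPM in WT flies at 18°C. In the opposite direction for temperature, RpL7-like took 2.10% ± 0.14 of the counts of RpL7 and itself in the ADAR hypomorph at 29°C and 3.24% ± 0.44 at 18°C, and 1.80% ± 0.10 in WT flies at 29°C and 2.41% ± 0.10 at 18°C (SD, n = 3 each). It was 0.57 points higher in ADAR hypomorph than in WT flies and -0.87 points apart between 29°C and 18°C (exact permutation test, adjusted p = 0.01 for each). RpLP0-like took 0.49% ± 0.07 in the ADAR hypomorph at 29°C and 0.80% ± 0.05 at 18°C, and 0.45% ± 0.02 in WT flies at 29°C and 0.85% ± 0.07 at 18°C (SD, n = 3 each). Its temperature difference was -0.36 points (exact permutation test, adjusted p = 0.01) and its strain difference -0.0055 points (exact permutation test, adjusted p = 0.895). RpL7 and RpLP0 rose at 29°C while the CPM of RpL7-like and RpLP0-like overlapped between the temperatures in the ADAR hypomorph.

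The other duplicates were close to silent in these heads. RpS5b, known for its use in the ovary, took 0.0236% ± 0.0021 of the counts of RpS5a and itself in the ADAR hypomorph at 29°C and 0.0595% ± 0.0080 at 18°C, and 0.0435% ± 0.011 in WT flies at 29°C and 0.0632% ± 0.033 at 18°C (SD, n = 3 each). This rests on 5 to 13 counts a library. Its temperature difference of -0.0278 points had an adjusted p of 0.0364 (exact permutation test), which reached 0.0846 with 1 library left out, and the CPM of RpS5b did not pass the test in any comparison. RpL37b had 2 counts in the 6 ADAR hypomorph libraries and 13 in the 6 WT libraries, a strain difference of -0.00673 points of the counts of RpL37a and itself (exact permutation test, adjusted p = 0.05, not under the threshold), with WT libraries at 0 to 4 counts. RpS10a had 9 counts in ADAR hypomorph and 9 in WT libraries. RpS19b had 1 count in ADAR hypomorph and 13 in WT libraries (exact permutation test of the share, adjusted p = 0.123). RpL10Aa, RpL22-like, RpS28a and RpS28-like had 0 counts in every ADAR hypomorph library and 7, 5, 2 and 1 counts in all WT libraries together. Replicate 2 of WT flies at 29°C held 9 of the 14 RpS19b counts, all 7 of RpL10Aa and 3 of the 5 of RpL22-like. The 5 testis germline markers summed to up to 16.5 CPM in WT flies at 29°C, against at most 1.46 CPM in any library of the other groups. Their part in the result was not tested. A count of 0 allows up to 3 counts, and these floors cover counting error only. The main copies of these pairs were abundant and followed the set. RpL10Ab had 4126 to 4181 CPM in the ADAR hypomorph at 29°C and 2655 to 3150 CPM at 18°C, and RpL37a 4276 to 4475 CPM and 2580 to 2994 CPM. RpS10b had 2308 to 2378 CPM in the ADAR hypomorph at 29°C and 1372 to 1654 CPM at 18°C, RpS19a 3439 to 3645 CPM and 2414 to 2760 CPM, RpS28b 2892 to 3052 CPM and 1895 to 2251 CPM, and RpL22 3285 to 3374 CPM and 1919 to 2342 CPM. None of these ranges overlapped, and the log2 fold changes ran between 0.43 (RpS19a) and 0.63 (RpL22) in the ADAR hypomorph and between 0.38 (RpS19a) and 0.67 (RpL22) in WT flies.

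Genes outside the set but of the same machinery moved partly with it. Rack1, a scaffold protein of the small subunit under another symbol, was at 3013 ± 40 CPM in the ADAR hypomorph at 29°C and 1811 ± 139 CPM at 18°C, and 3240 ± 135 CPM in WT flies at 29°C and 2142 ± 78 CPM at 18°C (SD, n = 3 each). Its log2 fold change was 0.73 in the ADAR hypomorph and 0.60 in WT flies (SE 0.06, adjusted p = 2.13e-07 and 1.60e-06), and -0.24 between the strains at 18°C (adjusted p = 0.00557). Of 7 genes of elongation factors and Tctp, whose mRNAs are regulated in translation like those of ribosomal proteins, 5 were higher and 1 lower at 29°C in each strain (background 15.6% higher and 16.6% lower in the ADAR hypomorph, 16.1% and 17.3% in WT flies). The rises were 0.46 for Ef1alpha48D, 0.37 for Ef1alpha100E, 1.15 for Ef1beta, 0.45 for Ef1gamma and 0.65 for Tctp in the ADAR hypomorph, and 0.31, 0.53, 0.54, 0.42 and 0.73 in WT flies, while eEF1delta was at -0.35 and -0.67. Between the strains 1 was higher and 5 lower in the ADAR hypomorph at 18°C (background 11.6% and 14.6%), where Ef1alpha100E rose by 0.77 and Ef1alpha48D, Ef1beta, Ef1gamma, eEF1delta and EF2 fell. At 29°C Ef1alpha100E was again higher, at 0.61, and Ef1alpha48D and Ef1gamma were lower, at -0.28 and -0.46 (background 8.81% higher and 10.2% lower). Of 25 genes for ribosome assembly and rRNA synthesis 7 were higher and 3 lower at 29°C in the ADAR hypomorph (median 0.12) and 3 higher and 4 lower in WT flies (median -0.12). Over all tested genes 15.6% were higher and 16.6% lower in the ADAR hypomorph and 16.1% and 17.3% in WT flies, and nothing particular to the list is read from these counts. Non1 and pix led the rises, at 1.09 and 0.88 in the ADAR hypomorph and 1.30 and 0.81 in WT flies, and Tif-IA, an initiation factor of rRNA synthesis, was also higher in both. Nop56, Surf6, RpI1 and mbm passed upward in the ADAR hypomorph. eIF6 and pit were lower in both strains, Nmd3 in the ADAR hypomorph, and NHP2 and Ns1 in WT flies. At 18°C, 6 of the 25 were lower in ADAR hypomorph than in WT flies (Nop56, Nop60B, NHP2, hoip, Nnp-1 and RpI1), where 14.6% of all tested genes were lower. At 29°C kz was higher and Non1 lower (background 8.81% higher and 10.2% lower). Nothing particular to the list is read from these strain counts either. Of 20 tested regulators of growth and ribosome production, 4 were higher and 3 lower in the ADAR hypomorph and 6 higher and 2 lower in WT flies, with Myc at 0.54 and 0.49 and Thor, the fly 4E-BP, at -0.34 and -0.29. The same background applies, and nothing particular to this list is read from its counts either. Rheb, crc and Gcn2 were also higher and Trf2 lower in both strains, REPTOR was lower in the ADAR hypomorph, and Tsc1 and gig were higher in WT flies.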

How the data were processed

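3′ RNA-seq (digital gene expression) of fly heads was analysed from 1 deposited table of whole-number counts per gene. The authors mapped the reads with TopHat (build dm3), obtained gene counts with ESAT and deposited the counts without normalization. The table gives symbols, chromosomes and strands and no positions. No dm3 genome was used here, so no sequences or coordinates are given, and the annotation at hand (Ensembl release for another build) served for gene overlaps and snoRNA genes only, where all 93 members matched, 91 by symbol and 2 by synonym. In each group 1 column carries no replicate number and was used as a further replicate of its group. 4 further columns, of another temperature, match none of the samples and were left out.

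Genes were kept by filterByExpr (edgeR 4.0.16, R 4.3.3), scaled by TMM and fitted with 4 groups over all 12 libraries by quasi-likelihood (biological coefficient of variation 12.9%), and p-values were adjusted over the 9553 genes tested. Total counts per library of 4409119 to 8806472 bound the precision. The members and lists were chosen with earlier results of these data known. Named genes are those of the paralog pairs, the stalk, 5 genes of known role, the highest and lowest members, the 3 largest rises and falls among called members (mean normalized count of 10 or more in either group), and called genes of the other lists. Lists were genes of ribosomal proteins under other symbols (1 of 4 found), elongation factors, ribosome assembly and growth regulators, with markers of neurons, photoreceptors, glia, fat body, muscle, ovary and testis germline. No 2 libraries of a group agreed within sampling noise (chi-square per degree of freedom 3.29 to 8.22). The fit was tested on simulated data. Alternatives were other scalings and filters, DESeq2 1.42.0, the compared groups alone, a replicate block and each library left out. Python 3.11.15, scipy and matplotlib served for paralog tests and plots.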

Additional observations from a re-analysis of the deposited data

Results flagged for a closer look

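By edgeR's test with TMM scaling, no ribosomal protein gene had a temperature effect that differed between the strains, while DESeq2 and the fit scaled to total counts each called 1 lower, RpL24-like. Groups of 3 libraries are too small for a test of single outlying libraries. Among the genes of the other lists, the difference of the temperature effects, ADAR hypomorph minus WT, passed edgeR's test (adjusted p under 0.05 over the 9553 genes) for 9. These were the elongation factor gene Ef1beta (0.62 on the log2 scale), the 6 fat body markers Fbp1 (6.50), Fbp2 (6.03), Lsp2 (5.04), Yp1 (1.07), Yp2 (1.26) and Yp3 (1.07), and the muscle markers up (0.55) and Mlc2 (0.48). Ef1beta was at 1242 ± 26 CPM in the ADAR hypomorph at 29°C and 558 ± 63 CPM at 18°C, and at 1184 ± 46 CPM in WT flies at 29°C and 816 ± 21 CPM at 18°C (SD, n = 3 each). The calls of these 9 genes are given only with the unnumbered library of the ADAR hypomorph at 18°C included.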

How the results depend on the processing

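The temperature result kept its direction under every alternative scaled by TMM or DESeq2's size factors, with 80 to 82 ribosomal protein genes higher at 29°C in each strain. Its median ran from 0.44 to 0.58 in ADAR hypomorph flies and from 0.42 to 0.46 in WT flies. The medians of the strain effects stayed below 0 with TMM factors, DESeq2's size factors and total counts. At 18°C the median with total counts was only -0.0355, and the 10 genes then called lower lie near the background of 8.16%. The counts of the strain result moved with the scaling, the estimate of the spread and single libraries, and the cause was not tested. With total counts in place of TMM factors, the temperature effect in ADAR hypomorph flies had 1 gene lower and a median of 0.33, the one in WT flies a median of 0.39, the strain effect at 18°C 5 genes higher and 10 lower with a median of -0.0355, and the one at 29°C 1 higher and 13 lower with a median of -0.0893. With total counts the background was 31.4% lower for temperature in ADAR hypomorph flies. Between the strains it was 27.6% higher and 8.16% lower at 18°C, and 11.1% and 8.40% at 29°C. The difference of the temperature effects then had 1 gene lower (background 1.98%) and a reversed median of -0.0566. RpL41 was at -0.14 for temperature in ADAR hypomorph flies, and RpL22, RpL37a and RpL5 at 0.18, 0.00759 and 0.0131 between the strains at 18°C. DESeq2 gave 1 higher and 67 lower at 18°C (background 9.39% and 14.7%) and 27 lower at 29°C (background 9.97%). It gave 1 lower for the difference of the effects (background 0.764%). With the compared groups alone, 1 was higher and 37 lower at 18°C (background 10.1% and 13.9%). At 29°C 1 was higher and 54 lower (background 9.79% and 11.3%). By the study's own criterion 0 were higher in ADAR hypomorph flies and 1 in WT flies for temperature, 0 differed at 18°C and 1 was lower at 29°C. An alternative chosen after seeing the data was scaling to the ribosomal protein counts. It gave 25 higher and 21 lower for temperature in ADAR hypomorph flies (background 2.95% and 61.9%) and 23 and 16 in WT flies (background 3.62% and 51.0%). Between the strains it gave 12 and 7 at 18°C (background 28.0% and 6.47%), and 5 and 3 at 29°C (background 14.0% and 5.60%). The scale itself shifts these backgrounds, which are no yardstick for the members.

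With each library omitted in turn there were 81 to 82 and 80 to 82 genes higher for temperature in ADAR hypomorph and WT flies, 1 to 2 higher and 43 to 74 lower between the strains at 18°C, and 5 to 58 lower at 29°C. The medians were 0.44 to 0.58, 0.42 to 0.46, -0.28 to -0.16 and -0.16 to -0.12 for these 4 comparisons, and -0.000797 to 0.14 for the difference of the effects. Paralog shares ranged from -0.00879 to -0.00429 points for RpL37b and from -0.0107 to -0.00318 for RpS19b between the strains, and from -0.0352 to -0.0189 for RpS5b between the temperatures. On the scale of log ratios, RpL37b passed the exact permutation test between the strains at a log2 difference of -1.20 (adjusted p = 0.0417).

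Libraries share the replicate numbers 2 and 3 between groups, and a pairing by number was checked. Deviations from the group means correlated on average at 0.00386 for libraries of the same number and 0.00568 for the others, so the numbers were not taken as pairs. These averages hide opposite values. Between the strains at 29°C, libraries of the same number correlated at 0.24 and 0.23 and the others at -0.31 and -0.15. Between the ADAR hypomorph at 18°C and WT flies at 29°C, the same number gave -0.20 and -0.17, and the others 0.13 and 0.33. With a replicate block over the 8 numbered libraries, 1 was higher and 42 lower at 18°C (background 6.69% and 9.86%). At 29°C 48 were lower (background 7.27%), and the difference of the effects had a median of -0.0164. Without the block, the same 8 libraries gave 1 higher and 32 lower at 18°C (background 7.01% and 10.3%). They gave 27 lower at 29°C (background 7.16%) and a median of -0.0167. Genes with few counts, such as RpS5b, have wide errors at this depth.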
